A study of Mus musculus with 12 samples.

Results

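The 7 genes described here, C1s1, C1ra, C2, C3, C4b, Cfb and Serping1, encode proteins of the complement system. They were taken by name from the 32285 gene rows of the matrices, and all 7 were found. They were put together as complement genes of the tumour line cells with results in those cells already known. The members were thus chosen by their UMI counts in line cells, and their levels there, and the difference between knockout and control line cells, are described with no test. The tests below concern other cell classes of the same tumours, and days and cell states of the same line cells. They use data whose earlier results were known when the members were chosen, so their p-values are not independent of that choice.

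Complement is a cascade of plasma proteins that coats cells with fragments of C3 and C4, calls in leukocytes and can perforate membranes. In the classical pathway, C1q binds a target and activates the proteases C1r and C1s, which cleave C4 and C2 to form a C3 convertase. In the alternative pathway, factor B pairs with C3b into a second convertase, and C1 inhibitor, the product of Serping1, blocks C1r and C1s. The liver makes most circulating complement, while fibroblasts, macrophages and some tumour cells make several components locally, and interferon gamma is a known inducer of many of them. In the mouse, C1ra and C1s1 are the widely expressed C1r and C1s genes, and C4b encodes complement C4.

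Single-cell RNA of mouse tumours was measured with a 10x Genomics 5′ kit after sorting for live cells. The labels name 4 SCC35 lines in a series on melanoma rejection: Mif KO control 15, Mif KO control 18, Mif KO 19 and Mif KO 24, the KO lines lacking macrophage migration inhibitory factor. Each line is numbered, its derivation and the strain and age of its hosts could not be taken from the labels, and 2 lines stand for each group. Hashtag antibodies marked 21 control and 21 KO tumours of days 0, 6, 10 and 16, and 3 further tumours named WT, all in 6 libraries of 176381 barcodes. What day 0 stands for is not given. Only hashtags tell the tumours apart, and nothing in the labels says that each came from its own animal, so p-values measure the spread between these tumours and do not extend beyond these 4 lines. Of the libraries, 4 hold a single line each, so line and library cannot be told apart there, and the 2 mixed libraries (lines 15, 18 and 19 in the first, lines 18, 24 and WT in the second) give values within a library.

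UMIs, the counts of single RNA molecules, were summed per tumour over cells of a class and are given as CPM, the gene's UMIs per 1000000 UMIs of that class. Line cells (non-immune cells with few or no UMIs of fibroblast, endothelial, pericyte or keratinocyte markers) numbered 217 to 3216 a tumour, macrophages 45 to 831, fibroblasts 21 to 101 and T cells 20 to 438 in the tumours used. Day 0 held 5959 line cells but 9 macrophages, 20 fibroblasts and 7 T cells in all, so the other classes have values for days 6 to 16 only. Line cells were gated to hold no UMI of a T-cell marker, and their summed level of 7 melanocytic markers, which no gate used, was 6.66 to 23.5 CPM. Mif, whose loss checks the labels, was 1786 to 3119 CPM in control line cells, 42 to 55 in line 19 and 226 to 439 in line 24 in their own libraries. It was higher in the mixed libraries, 222 to 261 in line 19 and 698 to 716 in line 24. Barcodes shared between libraries were 3.41% to 4.83% of the smaller library.

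C1ra and C1s1 lie next to each other, and their levels ran together, so their start regions are shown. On GRCm38, C1ra is at chr6:124512405-124523443 on the plus strand and C1s1 at chr6:124530345-124542359 on the minus strand, so that their 3′ ends face each other across 6901 bases. RefSeq start regions (GRCm38.p6) were at hand for 3 of the 7 members, C1ra, C1s1 and C3. They were searched on both strands for GAAANNGAA (an interferon response core), TTCNNNGAA (the GAS site of STAT factors) and GGANNTTCC (an NF-kB type site). The 250 bases before the upstream RefSeq start of C1s1, chr6:124542360-124542609 on the minus strand, hold an NF-kB type match, in capitals. It begins at -12 from that start and at -50 from another RefSeq start of C1s1 downstream. The 30 bases of C1ra, chr6:124512641-124512670 on the plus strand, hold a GAS match, in capitals, that begins 33 bases after the RefSeq start.
C1s1: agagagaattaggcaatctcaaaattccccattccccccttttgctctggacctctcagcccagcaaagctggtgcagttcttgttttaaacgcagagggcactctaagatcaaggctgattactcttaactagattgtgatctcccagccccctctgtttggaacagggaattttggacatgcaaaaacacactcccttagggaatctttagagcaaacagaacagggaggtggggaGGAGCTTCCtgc
C1ra: gcaaatgcttcaTTCCCTGAAacattcctc
Each start region searched runs from 250 bases before the start to 50 after it, and among 32851 such regions 8.56% held the interferon core, 8.30% the GAS site and 4.26% the NF-kB type site. C3 held none of them in this window, and the matches are descriptions of letters, not of bound sites.

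Among line cells, C1s1, the protease that cleaves C4 and C2, had its highest levels in KO line 24. At day 0 the line 24 samples held 75.3 and 82.9 CPM and the line 19 samples 24.7 and 23.8, against 0.67 and 1.64 for line 15 and 1.54 for the only line 18 sample. From day 6 to day 16 the 8 tumours of line 24 held 17.8 to 57.9 CPM (median 35.7), and the 9 of line 19 held 0.996 to 2.87 (median 1.97). Control tumours of the same days held 0.16 to 4.68 (median 0.745) in line 15 and 0.50 to 4.75 (median 1.82) in line 18. These levels rest on 94 to 1005 UMIs a tumour in line 24 and on 2 to 71 in the control lines. The KO lines thus stood above the controls at day 0 and at day 6, where line 19 held 2.02 to 2.50 CPM and the 6 control tumours at most 1.33. At day 0, 27.6% of all genes separated in this way, and for day 6 that share is not given. At days 10 and 16 the ranges of line 19 and the control lines overlapped, while line 24 stayed above them.

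C1ra, the protease that activates C1s, followed the same order. It was 89.5 and 91.6 CPM at day 0 in line 24 and 43.3 and 34.4 in line 19, against 5.58 and 6.91 in line 15 and 2.56 in line 18. Later tumours held 21.9 to 54.3 CPM in line 24 and 3.33 to 7.98 in line 19, with 2.26 to 8.56 in line 15 and 0.73 to 8.33 in line 18. At day 6 line 19, with 7.50, 7.30 and 7.62 CPM, still lay above all 6 control tumours (0.73 to 3.26), a separation for which no share of all genes is given. By day 16 it lay among them. Within the second mixed library, where library cannot separate the lines, line 24 held 21.0, 30.5 and 17.8 CPM of C1s1 at days 6, 10 and 16, and line 18 held 0.66 and 2.26 at days 6 and 10.

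**Figure D1:**
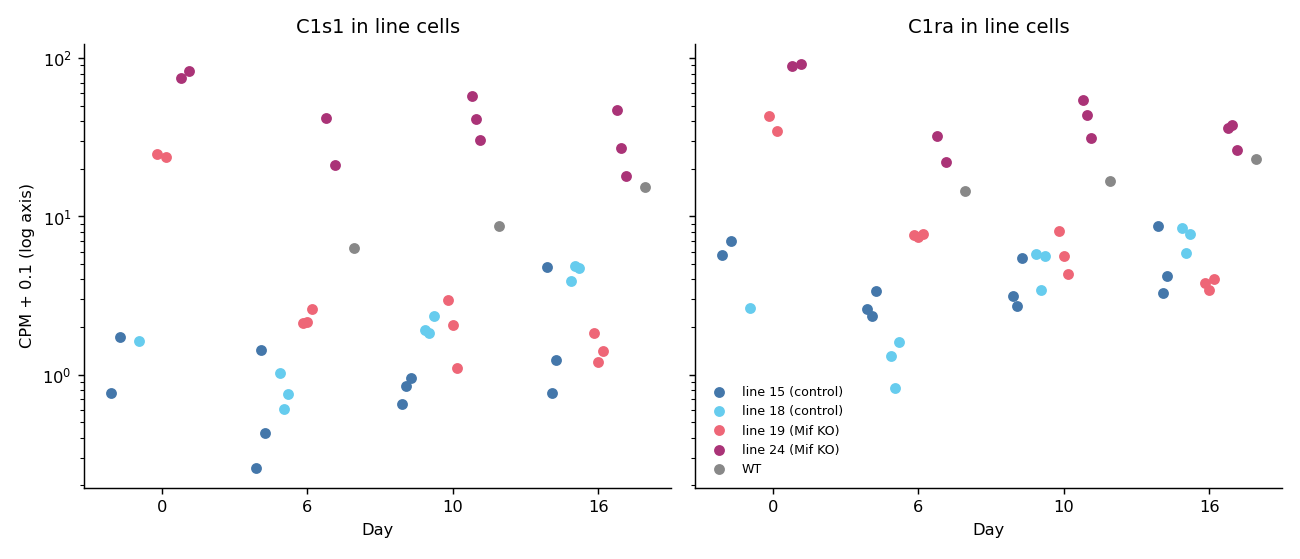
Level of C1s1 (left) and C1ra (right) in line cells, as CPM + 0.1 on a log axis, by day, with each point a tumour coloured by line. Line 24 lies highest at every day, line 19 lies between it and the controls at day 0, and the WT tumours lie below line 24 of the same day.

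The other members were scarce in line cells. C4b, the C4 gene, was 1.34 to 7.53 CPM in line 24 and at most 1.24 in the other 3 lines, with 0 UMIs in the 1343 control line cells of day 0, which allows up to 0.15 CPM. C3, the component that both convertases cleave, was 1.36 to 19.0 CPM in line 24 and at most 2.82 in the other 3 lines, and Cfb, factor B, was 0.78 to 10.1 against at most 1.53. Serping1 did not follow the groups: from day 6 it was 1.01 to 4.37 CPM in line 15 and 2.63 to 11.3 in line 18, and 2.65 to 9.12 in line 19 and 0.81 to 6.34 in line 24. C2, which C1s cleaves, was at most 1.02 CPM in line cells of every tumour. It was the only member that did not pass the count filter in line cells in the fits over all lines together, though it was tested in the fits by line.

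KO minus control log2 fold changes in line cells, the values behind the choice of the members, are given with no test. They were 3.59 for C1s1, 2.45 for C1ra, 2.10 for C4b, 2.09 for C3, 1.87 for Cfb and -0.17 for Serping1. With library as a block they were 1.83 for C1s1, 1.32 for C1ra, 0.89 for C4b, 0.55 for C3 and 0.53 for Cfb, and in the mixed libraries alone they were 2.96, 1.87, 1.52, 1.002 and 0.87. Without line 24 the values were 1.09 for C1s1, 1.06 for C1ra, 0.39 for C3 and 0.08 for Cfb, and without line 19 they were 4.65, 3.27, 2.99 and 2.86. C4b ran from 1.84 to 3.18 over those fits with a line left out that held it, and its value without line 24 is not given. Over all days no member had every KO tumour above every control tumour, as 0.111% of 12631 genes did. At day 0, C1s1, C1ra and C4b did (4 KO against 3 control samples), as did 27.6% of genes, and from day 6 to day 16 none did, as 0.23% of genes did. Summed immune markers, which the gate limits, had medians of 11.9, 20.5, 10.9 and 40.7 CPM in line cells of lines 15, 18, 19 and 24 from day 6 to day 16. The part of host RNA in the fold changes was not tested.

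Across the 42 tumours of the 4 lines, C1s1 and C1ra had a Pearson correlation of 0.96 in log2(CPM + 1), a description over tumours that share lines and libraries. C1ra was the gene most like C1s1, followed by Fgfrl1 at 0.96 and Ppp1r14a at 0.94, and after C1s1 the genes most like C1ra were C1rl, a C1r-like protease gene, and Gstm1, both at 0.95. C3 was most like Bcl2a1b, Rgs1 and H2-Eb1 (0.95, 0.93 and 0.92), and Cfb most like Tnfrsf18, Ltb and Icos (0.93 each), genes known from leukocytes. C4b was most like Arih1, Sox10 and Aqp4 (0.93, 0.92 and 0.91). Serping1 had no close partner, with Prune2 highest at 0.78.

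Fibroblasts held far more of every member than line cells did. Over the 32 tumours with both classes (17 control, 12 KO and the 3 WT), mean C1s1 was 6.97 CPM in line cells and 141 in fibroblasts, so that line cells held 4.93% of the fibroblast level, and for C1ra they held 8.25% (4.89% and 7.55% without the WT tumours). The share was 1.72% for C4b, 1.57% for Cfb, 0.76% for C3, 0.60% for Serping1 and 0.50% for C2. Xist, which host cells express and these line cells nearly lack, stood at 2.48% of the fibroblast level, and 7 fibroblast markers, which the gate on line cells limits, stood at 0.11% to 4.89% (median 0.21%). By line the C1s1 share was 1.62% in line 15, 2.22% in line 18 and 1.08% in line 19, below the highest fibroblast marker of each line (4.74%, 4.15% and 3.98%), so the pooled share rests on line 24. The C1ra share was 5.87%, 5.53% and 4.05% in these lines, above that marker in each.

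In line 24, with 4 such tumours, none of them of day 16, line cells held 12.8% of the fibroblast level of C1s1, 13.7% of C1ra, 2.20% of C4b, 3.51% of Cfb and 0.75% of C3, beside 3.81% of Xist and at most 7.37% of a fibroblast marker. Ogn, a gene of the line 24 cells, stood at 335% on the same measure. In line 24 the C1s1 and C1ra shares lay above those of the host markers, and those of C4b, Cfb and C3 lay within their range. The gate on line cells limits the fibroblast markers but not the members or Xist. The part of host RNA in the line-cell levels of the members was not tested. The day 0 samples held few host cells but shared their droplet libraries with later tumours. Host markers differed in their course in line 24 cells. Summed macrophage markers were 20.6 to 27.0 CPM at day 0 against a later median of 19.7. Summed immune markers were 17.8 to 18.9 CPM against 40.7, and Xist was 3.21 to 3.38 against 14.0. In line 19 the macrophage sum was 22.7 to 23.5 CPM at day 0 against a later median of 5.75. At day 0, line 24 cells held 1.75 and 1.90 CPM of C4b and 1.36 and 2.39 of C3. Fibroblasts had the highest level of Serping1, C2 and C4b, and fibroblasts and macrophages both had high levels of C3 and Cfb.

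Macrophages carried C3 and Cfb as well. Their mean over these 32 tumours was 92.2 CPM for C3 and 97.2 for Cfb, which is 41.4% and 109% of the fibroblast mean (37.0% and 103% without the WT tumours), while Serping1 was 1.67 CPM, 0.24% of it. T cells, which are not known to make C1r or C1s, were set beside the line cells. They are not a measure of free RNA alone: in line 24 they held 24.7 CPM of the fibroblast marker Dcn against 5.95 in line cells, which are gated on these markers, and over all lines the 7 fibroblast markers stood at a median of 268% of their line-cell level. In line 19 they held 2.71 CPM of C1s1, 147% of the line-cell level, and 53.5% of C1ra. In line 24 they held 22.5 CPM of C1s1 on average, 63.4% of the line-cell level, and 32.9% of C1ra. That level was 19.5 to 47.3 CPM in line 24's own library and 2.06 to 14.2 in the mixed library, where line cells held 26.8 to 57.9 and 17.8 to 30.5. For C4b, C3 and Cfb the T cells stood at 83.1%, 54.6% and 66.2% of line 24 cells. The part of free RNA and of doublets within a hashtag in either class was not tested.

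The share of cells with a UMI was also compared between the classes. After each cell was thinned to 2000 UMIs, 16.5% of line 24 cells held C1s1 at day 0 and 7.44% later, and for C1ra the shares were 18.7% and 7.92% (unthinned, 34.0%, 13.0%, 38.3% and 13.8%). T cells of line 24 held C1s1 in 3.42% and C1ra in 2.19% of thinned cells (3.35% and 2.27% unthinned). Median depth per tumour was 2239 to 5784 UMIs in line 24 cells and 1478 to 2100 in its T cells. Line 19 cells had a C1s1 share of 4.85% at day 0 and 0.48% later. T cells of line 19 had 0.21% (1 of 481 thinned cells), below its line cells, although their C1s1 level in CPM was above. Fibroblasts ran from 14.7% in line 15 to 36.4% in line 24. Serping1 was present in 46.7% to 73.4% of fibroblasts by line.

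**Figure D2:**
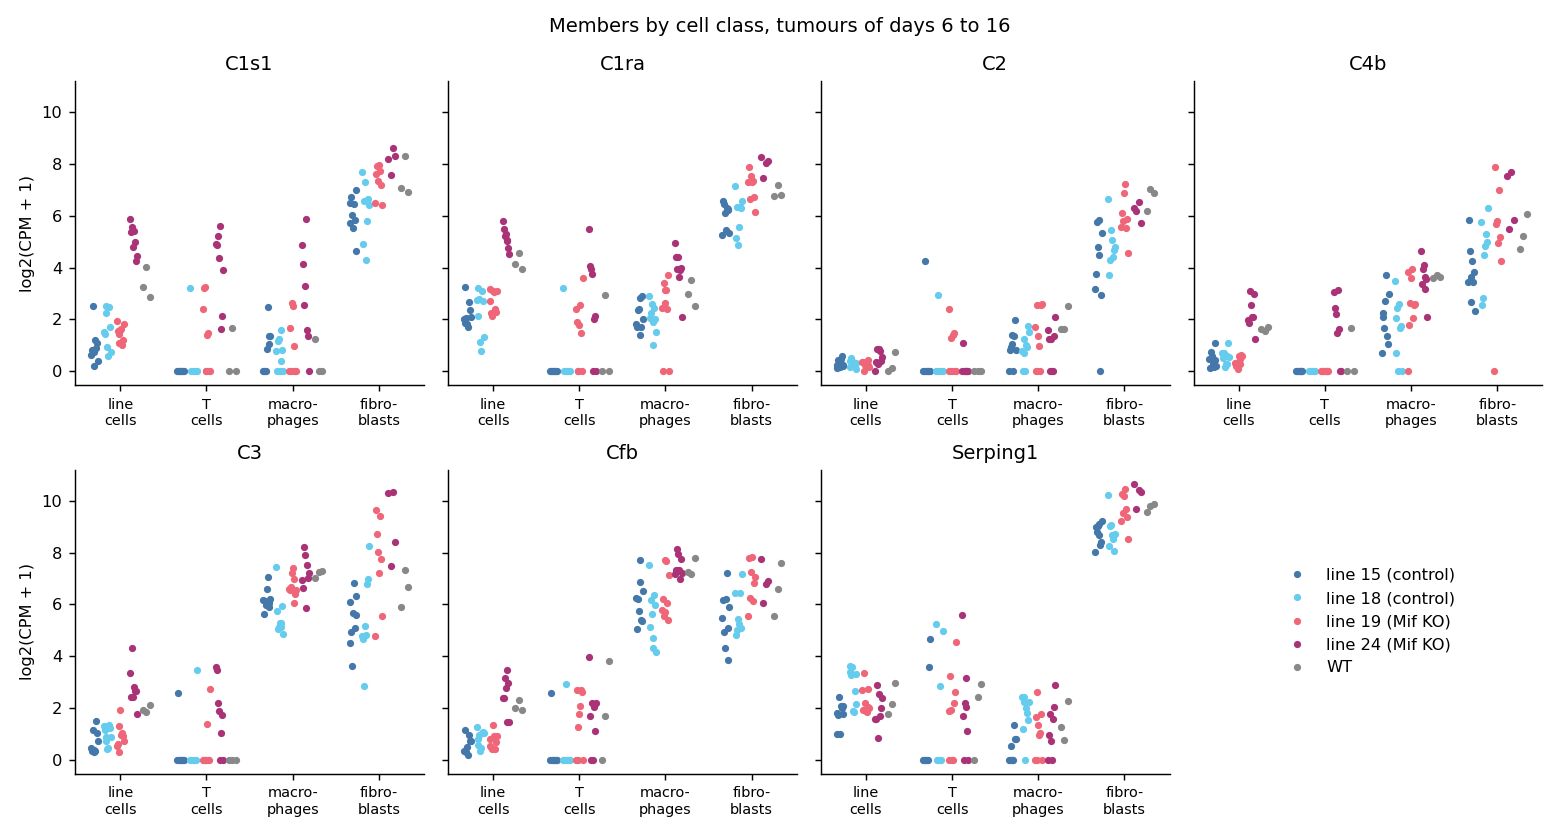
Level of each member, as log2(CPM + 1), in line cells, T cells, macrophages and fibroblasts of days 6 to 16, with each point a tumour coloured by line. Fibroblasts are highest for C1s1, C1ra, C2, C4b and Serping1, macrophages and fibroblasts both carry C3 and Cfb, and for C1s1 the T cells of line 24 (2.06 to 47.3 CPM) overlap its line cells (17.8 to 57.9 CPM).

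The day course of line cells was tested with line as a covariate over 42 tumours. From day 0 to day 6, C1ra and C1s1 fell by 1.89 (SE 0.31, adjusted p = 3.65e-06) and 2.31 (SE 0.42, adjusted p = 2.13e-05) on the log2 scale, by edgeR's quasi-likelihood test with Benjamini-Hochberg adjustment over all genes. Cfb rose by 2.63 (SE 0.49), Serping1 by 1.81 (SE 0.46) and C3 by 1.78 (SE 0.54), with adjusted p-values of 2.44e-05, 0.00135 and 0.0056, and C4b was 0.44 (SE 0.50) with no call. Thus 2 of 6 tested members were lower and 3 higher, where 25.1% and 25.5% of all 12765 genes were. The falls of C1ra and C1s1 held in each alternative, while in line cells with no UMI of another class's markers Cfb alone remained among the 3 higher (C3 1.19, adjusted p = 0.122, and Serping1 1.23, adjusted p = 0.17). Without line 19, C3 was 1.22 (adjusted p = 0.0725).

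Macrophage genes moved with the rises. C1qa, a chain of C1q that macrophages make, rose by 1.69 (SE 0.43), and C3ar1, the C3a receptor gene, by 1.64 (SE 0.39) in the same line cells. The part of host RNA in the rises was not tested. Of the 5 initiators tested 4 were higher (C1qa, C1qb, C1qc and Fcna) and Masp1 fell by 0.42. Of the 4 regulators 3 were lower, among them Cd59a, an inhibitor of membrane attack, which fell by 1.04. Of the 7 terminal components only C8g passed the filter in line cells, in the fits by line, and it was not called. Of the 12 genes of an interferon gamma list (Irf1, Cxcl9, Tap1 and others) 8 were higher and 0 lower, and of the 12 genes of an NF-kB and interleukin 6 list (Nfkbia, Socs3, Ccl2 and others) 10 were higher and 0 lower, with median log2 fold changes of 2.20 and 2.88 against 0.00 over all genes. Of the members the median was 1.11.

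Within single lines, C1ra fell by 2.14 in line 19 and 1.68 in line 24, and by 1.15 in line 15. The single day 0 sample of line 18 gave -1.07 (SE 1.12), which was not called. C1s1 fell by 3.26 (SE 0.40) in line 19 and by 1.29 (SE 0.37) in line 24, and was not called in lines 15 and 18, where its standard errors were 0.96 and 1.79. C3 was not called in lines 15, 19 or 24 (2.61, 2.53 and 1.14). Cfb was called in lines 19 and 24 (2.55 and 2.72) and not in line 15 (1.82). Serping1 was called in lines 15, 19 and 24 (5.08, 2.26 and 1.95). Day 0 counts were low: lines 15, 18, 19 and 24 held 1, 1, 4 and 43 UMIs of C3 and 2, 0, 3 and 19 of Cfb. The line-by-day term, which tests whether lines differ in the change from day 0 to day 6, was called for C1s1 (adjusted p = 0.028) and not for C1ra (adjusted p = 0.319), where 28% of 13983 genes were called.

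From day 6 to day 16 the change ran in opposite directions in lines 18 and 19 for C1ra. It rose by 2.53 (SE 0.34) in line 18 and fell by 1.07 (SE 0.27) in line 19, and was 0.88 in line 15 and 0.35 in line 24, with no call in those. C1s1 rose by 2.56 (SE 0.52) in line 18, was 1.96 (SE 0.73, adjusted p = 0.053) in line 15 and was -0.74 and -0.05 in lines 19 and 24. In line 18, C1s1 went from 0.50, 0.66 and 0.92 CPM at day 6 to 3.80, 4.64 and 4.75 at day 16, with no overlap. The line-by-day terms were called for C1ra (adjusted p = 4.4e-06), C1s1 (adjusted p = 0.00292) and C4b (adjusted p = 0.0451), 3 of 7 members against 11.5% of genes. It was also called for 11 of the 12 interferon gamma genes. Interferon-high line cells (at least 3 UMIs of 12 interferon-stimulated genes in cells thinned to 2000 UMIs) numbered 128 of 1834, 69 of 1924 and 46 of 1191 at day 6 in line 18 and 212 of 1721, 331 of 2621 and 257 of 1847 at day 16. In line 19 they numbered 320 of 977, 525 of 1639 and 341 of 1926 at day 6 and 89 of 1206, 95 of 1557 and 189 of 2828 at day 16. Thus the share was higher at day 16 in each line 18 tumour and lower in each line 19 tumour. Mean Ogn went from 18.2 to 103 CPM in line 18 and from 87.6 to 48.7 in line 19, and Xist from 3.98 to 8.82 and from 3.70 to 2.88. The part of these in the changes of C1ra and C1s1 was not tested.

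Over all lines Serping1 was the only member called from day 6 to day 16, at 0.80 (SE 0.28, adjusted p = 0.0227), and none was lower, where 18.2% of genes were higher and 19.5% lower. Without line 18 no member was called, without line 19 C1s1, C1ra, C3 and C4b were (1.19, 1.20, 1.04 and 1.34), and within the mixed libraries Serping1 was 0.25 (adjusted p = 0.663). Of the 4 regulators 2 were higher, among them Clu, the clusterin gene, which rose by 1.57, and none of the 5 initiators or 4 receptors was called.

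**Figure D3:**
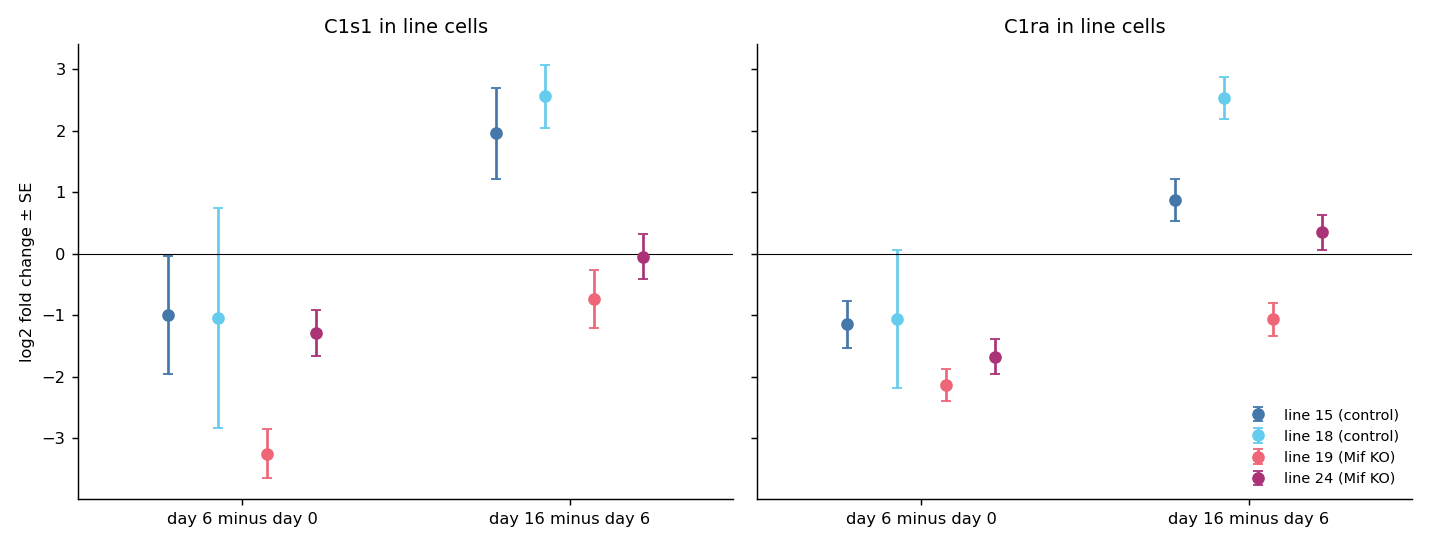
Change of C1s1 (left) and C1ra (right) in line cells within each line, as log2 fold change with its standard error, for day 6 minus day 0 and day 16 minus day 6. All estimates of the first step lie below 0, and in the second step line 18 lies at 2.56 and 2.53 while line 19 lies at -0.74 and -1.07.

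All 7 members were higher in the fibroblasts of KO tumours. The comparison asks whether the host stroma of KO tumours differs, in 12 KO and 17 control tumours with at least 20 fibroblasts. C1s1 was 213.6 ± 90.4 CPM (SD, n = 12) in KO and 81.6 ± 48.9 (SD, n = 17) in control fibroblasts, with overlapping ranges of 84.1 to 388 and 18.4 to 207. C1ra was 182 ± 74.3 against 69.2 ± 28.5, and Serping1, the inhibitor of both proteases, was 1005 ± 384 against 468 ± 218. The largest ratio of means was that of C3, at 474 ± 445 against 65.9 ± 72.4, with KO tumours spread from 26.8 to 1300. The groups overlapped in every member. The 3 WT tumours, whose line cells held 2241 to 2619 CPM of Mif, entered no test. Their fibroblasts averaged 189 CPM of C1s1 (120 to 315), 122 of C1ra, 858 of Serping1 and 107 of C3. Each of these means lay between the control and KO means.

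By edgeR's quasi-likelihood test with Benjamini-Hochberg adjustment, with day as a covariate, the log2 fold changes in fibroblasts were 1.54 (SE 0.25, adjusted p = 2.56e-05) for C1s1 and 1.36 (SE 0.21, adjusted p = 1.34e-05) for C1ra. C3 stood at 2.55 (SE 0.46, adjusted p = 0.000123), C4b at 1.57 (SE 0.41, adjusted p = 0.00645) and C2 at 1.41 (SE 0.33, adjusted p = 0.00203). Cfb stood at 1.16 (SE 0.25, adjusted p = 0.000724) and Serping1 at 1.13 (SE 0.21, adjusted p = 0.000178). Of all 5119 genes 9.4% were higher and 8.05% lower. The median of the members was 1.41 and that of all genes 0.00. With library as a block C1s1, C1ra and Serping1 stayed called (1.51, 1.19 and 1.14, adjusted p = 0.0119, 0.0171 and 0.0495) and C2, C3, C4b and Cfb, at 1.06 to 1.98, were not. In the mixed libraries alone, with 5 tumours a group, the values ran from 1.02 to 1.75 and Serping1 alone was called, and with 1 sum per line, 2 lines against 2, all 7 were called. The shares of all genes called in these alternative fits are not given. C4b was lost without line 15 or line 24 (1.13 and 1.37, adjusted p = 0.21 and 0.0528) and Cfb without line 19 (0.97, adjusted p = 0.0672).

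By line, fibroblast C1s1 averaged 72.0 and 92.4 CPM in control lines 15 and 18, and 172 and 296 in KO lines 19 and 24. The line 24 mean holds tumours of days 6 and 10 only, since its day 16 tumours had 4 to 11 fibroblasts. With days 6 and 10 alone all 7 members were called, and the share of all genes called in that fit is not given. Line cells of line 19 held 1.84 CPM of C1s1 on average from day 6 to day 16. Ogn, which the line cells of line 24 held most of, was 3.92, 20.9, 52.7 and 79.4 CPM in the fibroblasts of lines 15, 18, 19 and 24, and Xist was 196, 233, 299 and 497. The part of either in the differences was not tested. A shift in the mix of fibroblast states and a change within each cell cannot be told apart in these sums.

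**Figure D4:**
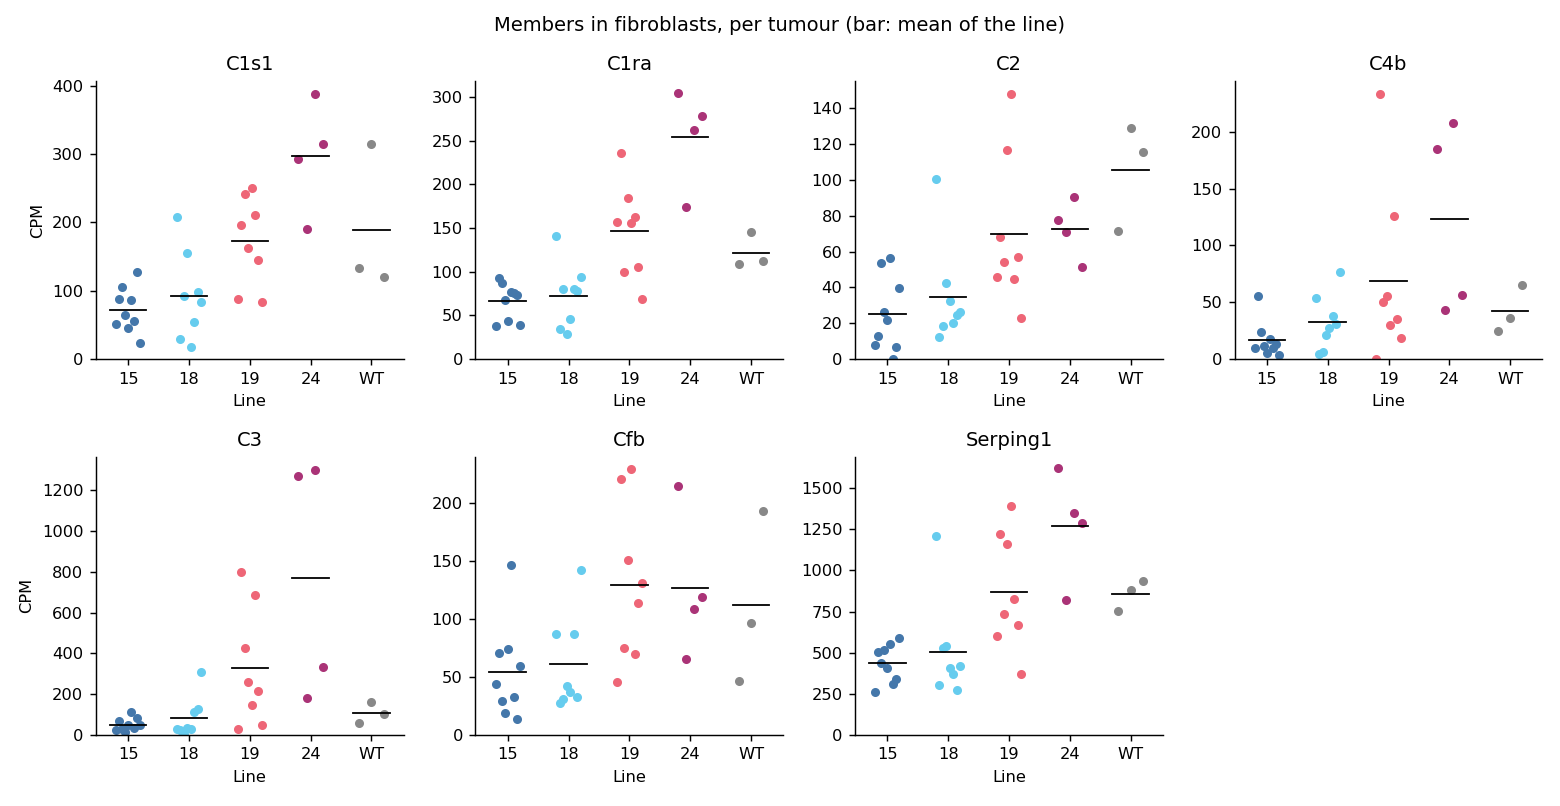
Level of each member in fibroblasts, in CPM, by line, with each point a tumour of days 6 to 16 (of days 6 and 10 in line 24) and each bar the mean of the line. Line 24 has the highest mean of the 4 lines for all members except Cfb, where line 19 averages 129 and line 24 127, and single tumours of lines 15 and 18 reach into the KO range.

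The other complement genes tested in fibroblasts did not show this rise. Masp1, a protease gene of the lectin pathway, fell by 1.88, from 159 ± 70.8 CPM (SD, n = 17) in controls to 37.6 ± 22.7 (SD, n = 12) in KO. Cd55, which dissociates convertases on cell surfaces, fell by 2.63, from 123 ± 51.9 to 22.4 ± 11.8 CPM. Colec12, a collectin gene that the list places among the initiators, was 134 CPM in controls and 171 in KO, with no call (0.41, adjusted p = 0.0604). Thus 0 of the 2 initiators and 0 of the 3 regulators tested were higher and 1 of each was lower. Of the 11 interferon gamma genes tested 9 were higher and 0 lower (median 1.45), and of the 11 NF-kB and interleukin 6 genes Ccl2 was higher at 1.04 and Socs3 lower, having fallen by 0.69 (median 0.10).

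C3 and Cfb were higher in the macrophages of KO tumours. C3 was 132 ± 62.1 CPM (SD, n = 17) in KO and 64.8 ± 37.1 (SD, n = 18) in control macrophages, and Cfb was 138.9 ± 75.4 against 70.3 ± 52.7, both with overlapping ranges. The log2 fold changes were 1.15 (SE 0.23, adjusted p = 0.000202) for C3 and 1.10 (SE 0.29, adjusted p = 0.00278) for Cfb by edgeR's quasi-likelihood test with Benjamini-Hochberg adjustment. Of 8751 genes 19% were higher and 18.5% lower. C1ra and C4b passed the count filter too, from means of 3.58 and 3.60 CPM in controls, at 1.75 and 1.61. Neither passed it without line 24, where they were highest, or without line 15, so their values are given as a description. With library as a block neither C3 nor Cfb was called (1.02 and 0.99, adjusted p = 0.105 and 0.219). Without line 24, C3 was called at 0.77 (adjusted p = 0.0449) and Cfb was 0.41 (adjusted p = 0.474), and in the mixed libraries alone C3 was called at 1.16 (adjusted p = 0.0206), with Cfb at 1.15 (adjusted p = 0.0567).

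C3 averaged 75.1, 54.4, 108 and 159 CPM and Cfb 80.8, 59.9, 98.1 and 185 CPM in the macrophages of lines 15, 18, 19 and 24. Line 24 was highest in both, and line 19 lay between it and the controls. Macrophages of the 3 WT tumours averaged 144 CPM of C3 (129 to 154) and 170 of Cfb (143 to 218). Both means lay above those of line 19, although Mif in WT line cells was within the control range. The WT tumours entered no test. The macrophage levels of C1ra were low in each line (3.66, 3.51, 5.69 and 16.1 CPM), and T cells of line 24 held 11.6 CPM on average. Ogn in macrophages was also highest in line 24 and next in line 19, at 113.9 and 29.8 CPM. The control lines stood in the other order, at 2.56 in line 15 and 10.95 in line 18. The part of Ogn-bearing line-cell RNA in the C1ra and C4b values was not tested. For C3 and Cfb line cells held 2.31% and 1.72% of the macrophage level.

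Around these members, the C1q genes C1qa, C1qb and C1qc, the recognition chains of the classical pathway, were at 1641, 2171 and 1504 CPM in control macrophages and were not called, nor were Itgam and Itgb2, chains of complement receptor 3, at 203 and 151 CPM. Fcna, a ficolin gene of the lectin pathway, fell by 2.37, and Cfp, the properdin gene that stabilises the alternative convertase, fell by 0.99. C3ar1 and C5ar1, the receptors of C3a and C5a, fell by 0.60 and 0.70, Itgax, a chain of complement receptor 4, rose by 1.36, and of 4 regulators 1 was higher and Cd59a fell by 1.27. Of the 12 interferon gamma genes 11 were higher and 0 lower, and of the 9 NF-kB genes tested 2 were higher.

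Line cells with a strong interferon response carried more C1s1 and C1ra than interferon-low line cells of the same tumour in most tumours, and 5 members were called higher over all tumours. Cells thinned to 2000 UMIs were called interferon-high with at least 3 UMIs of 12 interferon-stimulated genes such as Ifit1, Isg15 and Rsad2, and interferon-low with 0. No member is among the 12. This left 7916 high and 31174 low cells, with 13071 between them and 2156 exactly at the threshold of 3, and the sets were compared within 41 tumours. The high set held 12.1%, 10.7%, 12.9% and 28.7% of the cells with at least 2000 UMIs in lines 15, 18, 19 and 24.

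Mean C1s1 was 19.0 CPM in the high and 7.68 in the low set, higher in 35 of 41 tumours, and C1ra was 24.8 against 11.2, higher in 39 of 41. By line, C1s1 was 63.2 against 24.2 CPM in line 24 (10 of 10 tumours), 8.84 against 4.34 in line 19 (11 of 11), 3.92 against 1.77 in line 18 (8 of 9) and 1.19 against 0.88 in line 15 (6 of 11). C1ra in line 15, with 8.25 against 3.19 CPM, was higher in 11 of 11. Both proteases thus were higher in the interferon-high cells of most tumours. For C1s1 in line 15 the high sets held only 0 to 6 UMIs a tumour.

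With tumour as a block, edgeR's quasi-likelihood test with Benjamini-Hochberg adjustment gave log2 fold changes of 1.26 for C1s1 (SE 0.11, adjusted p = 1.05e-14) and 1.23 for C1ra (SE 0.09, adjusted p = 2.46e-18). Cfb stood at 1.38 (SE 0.27, adjusted p = 1.68e-05), C3 at 0.92 (SE 0.25, adjusted p = 0.00158) and Serping1 at 0.54 (SE 0.22, adjusted p = 0.0418). C4b, at 0.50 (adjusted p = 0.159), was not called. Cfb was higher in the high set in 27 of 41 tumours, C3 in 24 and Serping1 in 23, with Serping1 higher in 4 of 11 tumours of line 15 and C3 in 5 of 11 of line 19. Of 11614 genes 25.9% were higher and 24.3% lower. In the stricter line-cell gate C3 and Serping1 were no longer called (0.41 and 0.14), and Serping1 was also lost with DESeq2 (0.35) and without line 19 or line 24 (0.37 and 0.45). Fitted in line 15 alone C1s1 was 0.60 (adjusted p = 0.505), while it was called in lines 18, 19 and 24 alone (1.23, 1.22 and 1.34). C1ra was called in each line alone, and Cfb, tested in lines 19 and 24, in both (1.85 and 1.46). Serping1 was called in no line alone (0.13, 0.29, 0.82 and 1.02 in lines 15, 18, 19 and 24). C3 was tested in line 24 only and was not called there (0.45, adjusted p = 0.288). The difference between lines was not tested.

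The high and low sets differed in other ways as well. Ogn was 238 against 99.2 CPM, higher in 41 of 41 tumours, and the summed immune markers were 19.2 against 15.0 CPM, higher in 33 of 41. Fibroblast markers summed to 23.6 against 16.9 CPM and Xist to 3.39 against 2.04. Their part in the differences was not tested. All 11 interferon gamma genes tested and 10 of 11 NF-kB and interleukin 6 genes were higher, among them Il6 at 1.74 and Ccl2 at 1.28, as were all 4 initiators and 3 of the 4 regulators, among them Clu at 0.72 and Cd59a at 0.24.

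**Figure D5:**
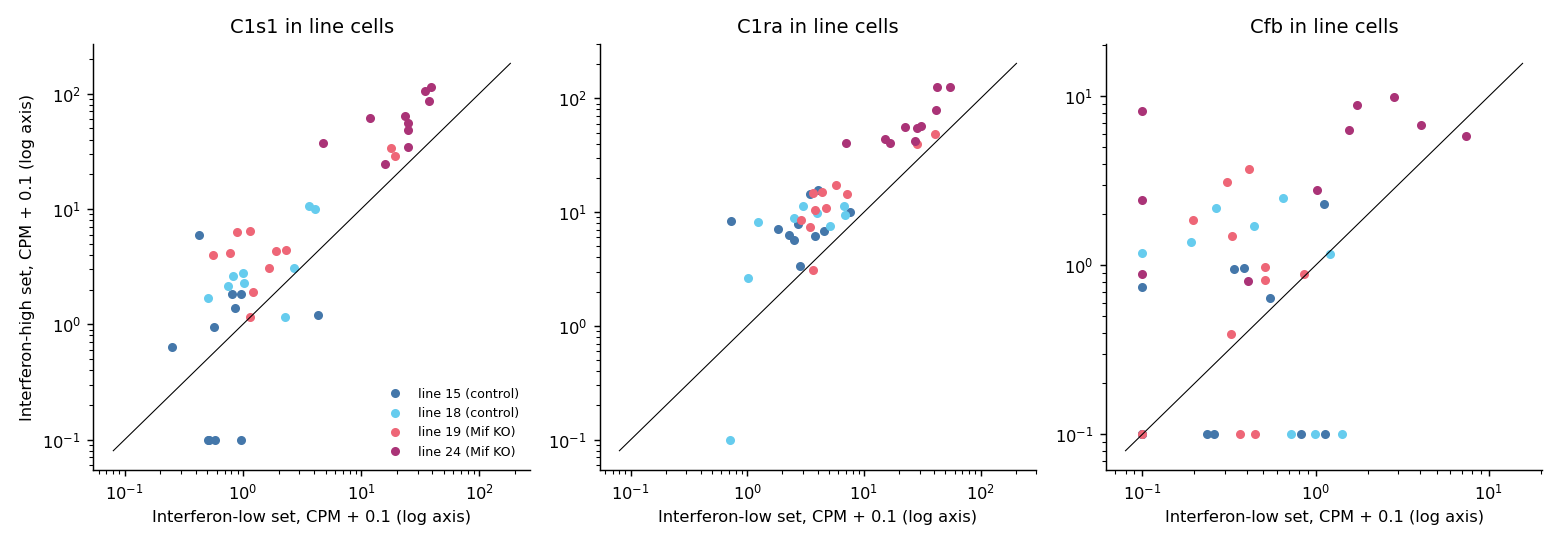
Level of C1s1, C1ra and Cfb, as CPM + 0.1 on log axes, in interferon-high (vertical) against interferon-low (horizontal) line cells, with each point a tumour coloured by line and the diagonal marking equality. For C1s1 35 of 41 tumours and for C1ra 39 of 41 lie above the diagonal, and for Cfb 27 of 41 do, with tumours at 0 drawn at 0.1.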

How the data were processed

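Single-cell 5′ libraries with hashtag antibodies were counted by the authors with Cell Ranger 6.0.0 on mm10, per the submitters' processing notes, and the deposited matrices hold raw UMI counts per gene and barcode. The submitters' sheet gave each hashtag's line and day as a deposited label. The members and gene lists were chosen with earlier results of these data known. Barcodes under 300 genes or above 15% mitochondrial UMIs were dropped (163866 kept), hashtags were called with HTODemux in Seurat 5.3.0, and 100557 singlets remained, with hashtag doublets (17.9% to 30.9% a library) removed. Of the 47 hashtags in the sheet, 2 gave too few cells, line 18 day 0 B and line 24 day 6 B. Doublets within a hashtag were not called. Library totals were 151385933 to 239699029 UMIs.

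Line cells had at most 1 UMI of 6 immune genes, no T-cell UMI and at most 1 fibroblast or macrophage marker gene, fibroblasts at least 3 fibroblast genes, macrophages at least 2 immune UMIs and 3 macrophage UMIs, and T cells at least 2 immune UMIs and 2 T-cell genes. Counts were summed per tumour with at least 20 cells of a class and tested with edgeR 4.0.16 (filterByExpr, TMM, quasi-likelihood, R 4.3.3) at an adjusted p of 0.05, which was checked on simulated data. The rule for names was the 7 members, genes of fixed complement lists past the threshold (up to 3 each way) or with at least 50 CPM, and the 3 most correlated genes a member. Alternatives were DESeq2 1.42.0, other size factors, a stricter gate, another hashtag call, another interferon threshold, no filter, each line left out, mixed or single-line libraries alone and 1 sum per line. Days 6 and 10 alone for fibroblasts, and library as a block, were added after the data were seen. Each SE of an edgeR fit was the absolute log2 fold change divided by the square root of the test's F statistic. Other intervals and limits cover counting error only. Some genes of the lists are not reported here by name. WT tumours have no group in the labels and entered no test, and are among the tumours of the pooled class shares, which were also computed without them after the data were seen.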

Additional observations from a re-analysis of the deposited data

Results flagged for a closer look

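In line cells of line 15, 1 tumour of day 16 stood apart from the other 8 of days 6 to 16, with 8.56 CPM of C1ra and 4.68 CPM of C1s1. In line 18 the day 10 A tumour stood apart in macrophages, with 173 CPM of C3, 10.2 of C4b and 183 of Cfb, and in fibroblasts, with 100.4 CPM of C2 and 1211 of Serping1. The line 15 day 6 B tumour stood apart in Cfb, at 207 CPM in macrophages and 146 in fibroblasts. Fibroblast C3 was 308 CPM in line 18 day 6 C, and fibroblast C4b was 55.4 CPM in line 15 day 10 B. These are 11 of 53 groups of tumours examined. At its nominal rate the rule flags about 1 in 20 such groups by chance, and the 11 are not independent, since line 18 day 10 A gives 5 of them.

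The lines differed in the change of C1s1 from day 0 to day 6 (adjusted p = 0.028 by edgeR's line-by-day term) and from day 6 to day 16 (adjusted p = 0.00292), and from day 6 to day 16 also in C1ra (adjusted p = 4.4e-06) and C4b (adjusted p = 0.0451).

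The 3 WT tumours, which are in no group of the labels, all stood above every control tumour in line cells in 5 members, with a lowest value of 6.19 CPM for C1s1, 14.4 for C1ra, 1.97 for C4b, 2.63 for C3 and 2.83 for Cfb. The share of all genes that did so is not given, so the count cannot be read as particular to these members. They held 2241 to 2619 CPM of Mif, within the control range. In C1s1 and C1ra they also stood above the 9 line 19 tumours of days 6 to 16, which held 0.996 to 2.87 CPM of C1s1 and 3.33 to 7.98 of C1ra. All 3 came from a mixed library.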

How the results depend on the processing

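From day 0 to day 6, the count of members higher in line cells was 3, and 1 in the stricter gate, with 2 to 3 when a line was left out. From day 6 to day 16 it was 1, against 2 with DESeq2 (C1s1 and C1ra), 0 in the mixed libraries alone and 0 to 4 with a line left out. In macrophages the count of 4 includes C1ra and C4b, whose values are given as a description only. C1ra and C4b did not pass the count filter in every fit with a line left out. The count became 0 with library as a block, 2 in the stricter gate and 1 in the mixed libraries alone. It was 1 with 1 sum per line and 1 to 4 with a line left out. In fibroblasts the 7 became 3 with library as a block, 1 in the mixed libraries alone and 6 to 7 with a line left out, and remained 7 with days 6 and 10 alone. Shares of all genes called are given for the main fits only. The interferon count of 5 became 3 in the stricter gate and 4 to 5 with a line left out. Log2 fold changes turned sign for C1ra from day 6 to day 16 (0.54, and -0.0071 to 1.20 with a line left out, lowest without line 18), for Cfb over the same days (0.04, and -0.13 to 0.56 with a line left out, or -0.10 in single-line libraries alone) and for Serping1 in KO minus control line cells (-0.17, and -0.79 to 0.74 with a line left out, highest without line 18). Among values of single members under all alternatives, calls were lost in 13 for fibroblasts, 10 for macrophages, 3 and 4 for the earlier and later day steps and 5 for the interferon sets, and gained in 7 for the later day step and 1 for the interferon sets. The cause was not tested. The labels' numbers name lines and pair no control line with a KO line, and tumours that share a library were compared in the fits with library as a block.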
